A study of Ovis aries with 3 samples.

Results

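Annexins and S100 proteins are families of calcium-binding proteins, and their transcripts were followed here in RNA of extracellular vesicles, small membrane-enclosed bodies shed by cells. Members were the rows of the deposited gene table whose symbol began with ANXA and a number or with S100, or that had no symbol and a description naming an annexin or an S100 calcium-binding protein. This rule returned 32 of 25197 rows, of which 2 were not of these families and were left out of the counts. S100PBP encodes a binding protein of S100P (0.3, 0.2 and 0.2 in libraries 1, 2 and 3), and the row ENSOARG00000001833 is pannexin 1, a channel protein whose name holds the letters of annexin (0.1, 0 and 0.1). The remaining 30 rows were 13 annexins and 17 S100 genes. A further row described only as Protein S100 (ENSOARG00000000593) was not taken by the rule and stood at 0, 0 and 0.3.

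All 3 libraries belonged to 1 group. They held total RNA from vesicle preparations of medium in which sheep (Ovis aries) conceptuses of day 14 of pregnancy had been kept. Conceptuses are the embryos with their extraembryonic membranes. Every conceptus was kept intact for 24 h in 10 ml of a DMEM/F-12 medium, and this medium contained 10% fetal bovine serum from which exosomes had been removed. How much of the RNA came from the serum was not tested. There was no control group and cellular RNA was not analysed here, so the values describe what the vesicle preparations contained and not enrichment over cells. Which animal gave which library is not in the labels, so the spread over libraries can include technical variation. The sign-flip p-values given here take the 3 libraries as replicates and do not measure that spread. Where all 3 differences had the same direction, the sign-flip p was 0.25 whatever their spread.

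Annexins bind acidic phospholipids of membranes in the presence of calcium through a conserved core of repeats, and they take part in membrane repair, endocytosis and exocytosis. S100 proteins are small dimers with EF-hand calcium sites, found in vertebrates, that bind the N-terminal tails of particular annexins. In the best known complex a dimer of S100A10, which holds an active form without calcium, joins a pair of annexin A2 molecules and links membranes to each other and to actin. Both families are abundant in many epithelia, and annexins are often found in vesicle preparations as proteins. Only RNA was measured here.

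Values were taken to be of the RPKM type, scaled for gene length and library depth, although their unit is not named. On that reading, levels of different genes can be compared within a library. For genes of unlike length, such as S100 genes and annexins, the comparison also takes even read coverage along the gene. Such coverage was not tested in these libraries, which were primed on poly(A) tails. Summed values were 17480.7, 40060.3 and 9531.8 in libraries 1, 2 and 3. Depth differed less: by the value that 1 read had in 1012 copies of the short U6 RNA (0.423, 0.538 and 0.449), library 2 was the shallowest, and libraries 1 and 3 exceeded it 1.27 and 1.20 times. In a gene 5 times as long as U6, a value of 1 stood for 11.8, 9.29 and 11.1 reads. As a measure of background, the 99th percentile of 481 olfactory receptor rows was 1.44, 1.02 and 1.74. A row counted as detected where each of the 3 libraries had at least 1. Among all rows of the table, 981 (3.89%) were detected. Of these 981, library 2 had the highest value in 75.6% and library 3 the lowest in 55.6%.

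Of the 17 S100 genes, 6 were detected (35.3%), namely S100A11, S100A2, S100A14, S100A10, S100G and S100A13. Of the 13 annexin rows, 2 were detected (15.4%), ANXA2_2 and ANXA6, and without library 3 the count was 4. Both shares were above the 3.89% of all rows, and above the 3.99% of the 18262 rows with a symbol. These are counts beside a background, with no test. S100A16, ANXA1 and the annexin A5 row fell short only in library 3. A value of 1 was reached in a single library by 4 further annexin rows. In all, 8 annexin rows and 7 S100 genes reached 1 in some library, which 17.9% of all rows did. The other 5 annexins and 10 S100 genes stayed below 1 in every library. Of these, 2 annexins and 5 S100 genes were listed at 0 throughout, against 21.6% of all rows.

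**Figure D1:**
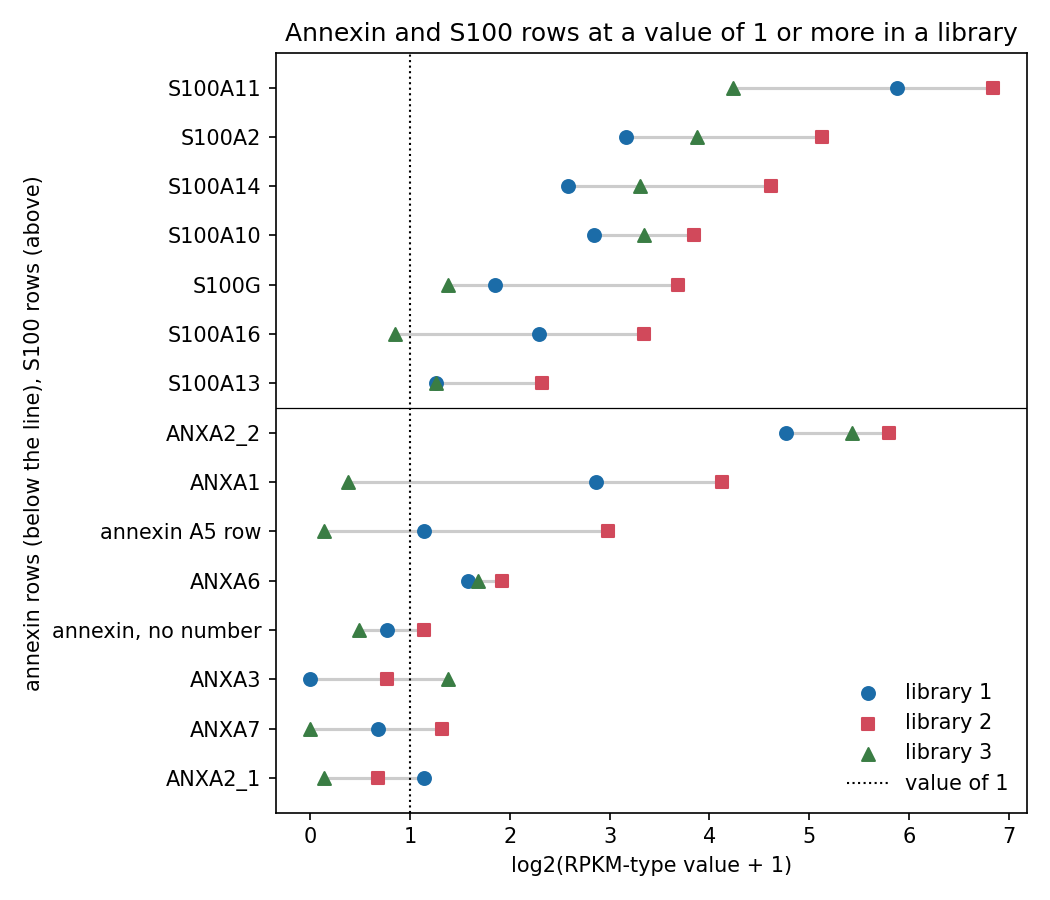
Levels of the 15 annexin and S100 rows that reached a value of 1 in a library, as log2(RPKM-type value + 1) on the horizontal axis, with 1 symbol per library, a grey line over their range and a dotted line at a value of 1. S100A11 and ANXA2_2 lead their families, and ANXA1 and the annexin A5 row spread most widely because of library 3.

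Annexin A2, the membrane and actin binding annexin that pairs with S100A10, led its family. The row ANXA2_2 stood at 26.3, 54.8 and 42.2 in libraries 1, 2 and 3 (41.1 ± 14.3, SD, n = 3). Library 2 was highest and library 1 lowest, and the range was narrow beside that of the summed values, of which the highest was 4.20 times the lowest. Among all rows of the table it ranked 87, 102 and 13. It took 0.150%, 0.137% and 0.443% of the summed values, so that its share was highest in library 3, the library with the smallest sum. A further row of the same symbol, ANXA2_1, stood at 1.2, 0.6 and 0.1, and the division of reads between the 2 rows is uncertain. Together the ANXA2 rows made up 71.8%, 64.1% and 90.0% of the annexin sum.

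ANXA6, the largest annexin and a scaffold at endosomes and the plasma membrane, was low, and it was even in the deposited values only. It stood at 2, 2.8 and 2.2 (2.33 ± 0.416, SD, n = 3), above the olfactory receptor percentile in all 3 libraries. Its share of the summed value was 0.0114%, 0.00699% and 0.0231%, highest in library 3. ANXA1, an annexin known for restraining inflammation, had values of 6.3, 16.5 and 0.3. Annexin A5, which binds phosphatidylserine and is known for covering the placental surface against clotting, was represented by the row ENSOARG00000014830 at 1.2, 6.9 and 0.1. Both genes were thus near 0 in library 3, where ANXA2_2 and ANXA6 were not. The ANXA1 value of library 3 lay below the olfactory receptor percentile, so no fold is given for it. The ratio of library 2 to library 3 was 1.30 for ANXA2_2 and 1.27 for ANXA6. The median ratio of library 2 to library 3 over the 981 detected rows was 2.9.

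The remaining annexins were close to background. ANXA3 stood at 0, 0.7 and 1.6, and it had its highest value in library 3. ANXA7, which promotes membrane fusion, was listed at 0.6, 1.5 and 0. An annexin row without a number, ENSOARG00000000912, stood at 0.7, 1.2 and 0.4. ANXA11, a partner of S100A6 that tethers RNA granules to lysosomes, had 0, 0.9 and 0.1. The values of ANXA4 and ANXA9 did not exceed 0.4, and ANXA10 and ANXA13 were listed at 0 in all 3 libraries.

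S100A11, a partner of annexin A1 with roles in the growth of epithelial cells, was the highest S100 gene in each library. It stood at 57.9, 114.1 and 17.9 in libraries 1, 2 and 3 (63.3 ± 48.3, SD, n = 3). Library 3 held less than the other libraries, and its ratio to library 1 was 0.309, below that of most detected rows (median 0.8). S100A11 ranked 35, 52 and 40 among all rows, so it was a leading transcript in library 3 as well. S100A2, an epithelial S100 protein that binds p53, had 8, 34.1 and 13.7 (18.6 ± 13.7, SD, n = 3). S100A14, an epithelial member with a role in cell adhesion and motility, had 5, 23.6 and 8.9 (12.5 ± 9.81, SD, n = 3). S100A10 had 6.2, 13.4 and 9.2 (9.6 ± 3.62, SD, n = 3). In the deposited values of S100A2, S100A14 and S100A10, library 1 was the lowest and library 3 lay in the middle, unlike S100A11. With libraries scaled to equal sums, library 3 was instead the highest in each of them. The scaled values were 8, 14.9 and 25.1 for S100A2, 5, 10.3 and 16.3 for S100A14 and 6.2, 5.85 and 16.9 for S100A10. S100A11 stayed lowest in library 3, at 57.9, 49.8 and 32.8. S100A11, S100A2, S100A14 and S100A10 made up 90.6%, 87.4% and 90.4% of the S100 sum.

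S100G, the small calbindin that buffers calcium in transporting epithelia of gut, uterus and placenta, stood at 2.6, 11.9 and 1.6 (5.37 ± 5.68, SD, n = 3). Its value in library 3 was below the olfactory receptor percentile of 1.74. S100A13, which takes part in the release of growth factors that lack a signal peptide, had 1.4, 4 and 1.4 (2.27 ± 1.50, SD, n = 3) and exceeded that percentile in library 2 alone. S100A16, a widely expressed member, had 3.9, 9.2 and 0.8. At these levels detection did not separate S100A13, or S100G in library 3, from background reads.

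The S100 genes known from myeloid cells were near or at 0. S100A8 stood at 0, 0 and 0.2 and its partner S100A9 at 0.1, 0 and 0.2, while S100A12 was listed at 0 throughout. None of the 17 leukocyte marker genes examined was detected, which at a background of 3.89% of rows is no sign of absence. Their values summed to 3.6, 7.3 and 5.5 per library, led by AIF1 at 0.3, 2.8 and 4.1. S100A4, a member typical of fibroblasts and motile cells, stood at 0, 0.8 and 0. None of 12 mesoderm and fibroblast markers was detected, a count to be read against the same background. Decorin and the collagen genes among them stayed at or below 0.8, and VIM stood at 3.4, 4.5 and 0.1. S100A3 (0, 0 and 0.8) and S100A5 (0, 0.7 and 0.3) were low, and S100A1, S100A6, S100B and S100Z were listed at 0 in all libraries. Of the lists that mark other possible sources, 2 of 15 trophectoderm rows, 2 of 15 extraembryonic endoderm rows and 4 of 16 uterine epithelium rows were detected. The uterine rows summed to 66.3, 187.8 and 13.1, the trophectoderm rows to 39.4, 175.3 and 36.8 and the endoderm rows to 10.4, 32.9 and 13.3. A few rows carried most of each sum, and the undetected rows of each list fell below 1 in at least 1 library. These counts and sums therefore do not rank the sources. In the deposited values of the detected members, S100A11 and S100G were lowest in library 3, as were 55.6% of all detected rows. ANXA2_2, ANXA6, S100A2, S100A14 and S100A10 were lowest in library 1. With libraries scaled to equal sums, S100A11 was still lowest in library 3, S100G in library 1, and ANXA2_2, ANXA6 and S100A10 in library 2. The part of any of these sources in the members' values was not tested. Fewer vesicles of a kind and less RNA per vesicle cannot be told apart in such data.

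Most S100 genes lie on 1 chromosome, and 5 of the 6 detected ones stood in separate stretches of it. The other, S100G, was not among the genes placed there. In the RefSeq gene table of the assembly ARS-UI_Ramb_v3.0, 26 of the 27 member symbols were found, and 13 S100 genes lay in order on the chromosome that carries S100A11. S100A10 and S100A11 stand at one end with 1 gene between them, and both were detected. After 57 other genes come S100A9, S100A8, S100A6, S100A5, S100A4 and S100A3, and none of them reached 1 in any library. S100A2, S100A16, S100A14 and S100A13 follow, all at 1 or more in libraries 1 and 2, and S100A1 next to them was listed at 0. S100A3 and S100A2 are direct neighbours, at 0, 0 and 0.8 against 8, 34.1 and 13.7. Whether strand was used in counting is not given in the sources used here, so reads from overlapping neighbours cannot be told apart.

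**Figure D2:**
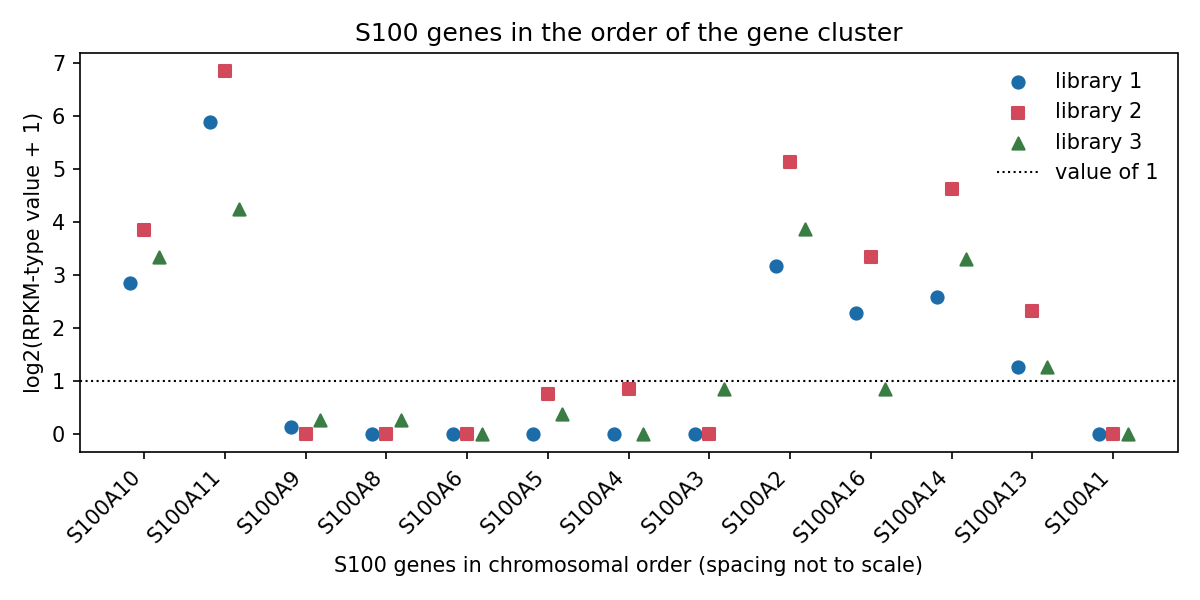
Levels of 13 S100 genes as log2(RPKM-type value + 1), placed in chromosomal order with spacing not to scale, with 1 symbol per library and a dotted line at a value of 1. The genes from S100A9 to S100A3 lie below the line in every library, between S100A11 and S100A2, which lie above it.

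The partners S100A10 and ANXA2 kept nearly the same ratio in the 3 libraries. The summed ANXA2 rows stood at 27.5, 55.4 and 42.3 and S100A10 at 6.2, 13.4 and 9.2, so that ANXA2 was 4.44, 4.13 and 4.60 times as high. Per length, the annexin transcript was thus above that of its partner in every library. The difference of S100A10 minus ANXA2 in log2(value + 1) was -2.01 ± 0.06 (SD, n = 3), with ANXA2 higher in 3 of 3 libraries. An exact sign-flip permutation test over libraries, two-sided, gave p = 0.25 (0.3 after Benjamini-Hochberg adjustment over 6 pairs), the smallest that 3 libraries allow. As a description, the same SD was computed between ANXA2 and each of 980 detected rows. It was at or below that of S100A10 in 7 of them (0.714%, S100A10 included), and its median was 0.70. This measure was chosen after the values were seen, and the rows share the same libraries.

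The ratio of S100A11 to its annexin partners varied more between libraries. S100A11 was 9.19 and 6.92 times as high as ANXA1 in libraries 1 and 2, and in library 3 it stood at 17.9 against 0.3. The difference in log2(value + 1) was 3.20 ± 0.59 (SD, n = 3; exact sign-flip p = 0.25, adjusted 0.3), and it was 2.86 over the 2 libraries in which both genes reached 1. Against ANXA6, S100A11 was 28.95, 40.75 and 8.14 times as high, a difference of 3.93 ± 1.22 (SD, n = 3; exact sign-flip p = 0.25, adjusted 0.3). S100A11 was the higher partner in 3 of 3 libraries in both pairs. Between S100A11 and the 980 other detected rows the median SD was 0.95, and the SD with ANXA6 lay above it. ANXA1 was not a detected row, so its SD is not set against that median. The SD with ANXA1 depended on the value added before the log, at 0.59 with 1 added and 1.46 with 0.1 added.

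**Figure D3:**
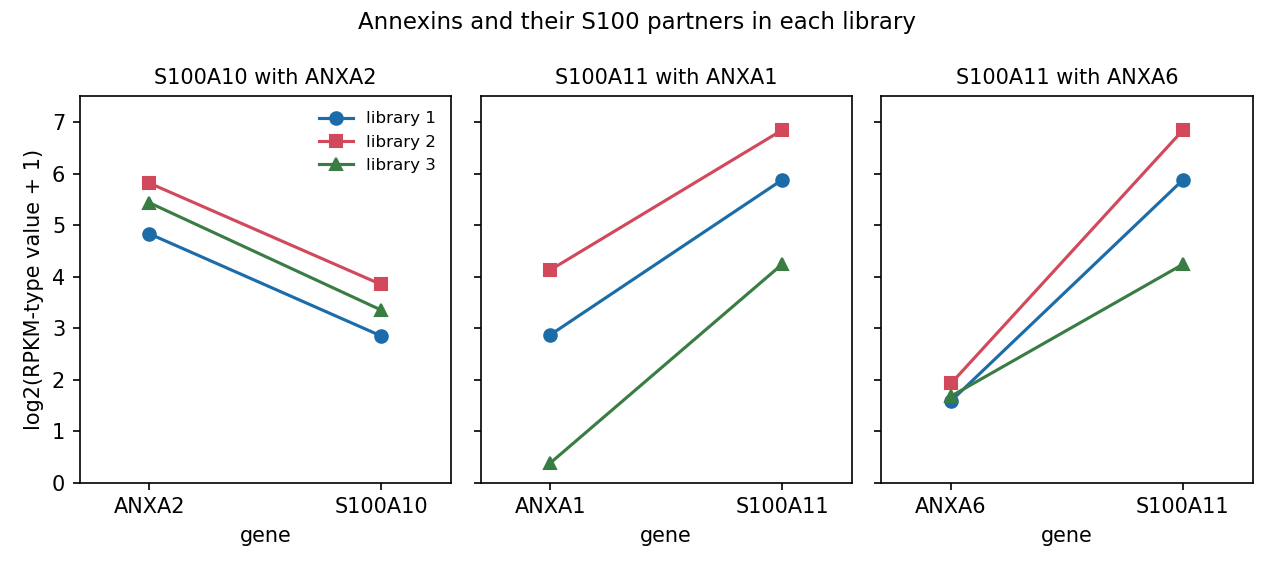
Levels of an annexin (left) and its S100 partner (right) as log2(RPKM-type value + 1), with 1 line per library and rows of the same symbol summed. The lines of ANXA2 and S100A10 run parallel, those of ANXA6 and S100A11 do not, and ANXA1 drops to 0.3 in library 3.

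For 3 other pairs known from protein studies the S100 partner was listed at 0 or below 1. S100A6 was listed at 0 in all libraries, against ANXA2 at 27.5 or more and ANXA11 at 0.9 or less. S100A4 was at 0, 0.8 and 0 beside ANXA2. The exact sign-flip p was 0.25 for S100A6 with ANXA2 and for S100A4 with ANXA2 (adjusted 0.3 for each) and 0.5 for S100A6 with ANXA11. Where the S100 gene was listed at 0, the difference could not be positive, so no conclusion is drawn from these tests. They are also among the 6 pairs of the adjustment. No fold is given against values listed at 0.

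As families, S100 genes took a larger share of each library than annexins. The S100 share of the summed value was 0.487%, 0.529% and 0.577% (0.531 ± 0.0451, SD, n = 3), and the annexin share was 0.219%, 0.216% and 0.493% (0.309 ± 0.159, SD, n = 3). The S100 share thus varied little, while the annexin share in library 3 was above that of the other libraries, with 89.8% of it in ANXA2_2. Within the S100 genes, S100A11 held 68.0%, 53.9% and 32.5% of the sum. The S100 share exceeded the annexin share by 0.222 ± 0.121 percentage points, in 3 of 3 libraries (SD, n = 3; exact sign-flip permutation test, p = 0.25).

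**Figure D4:**
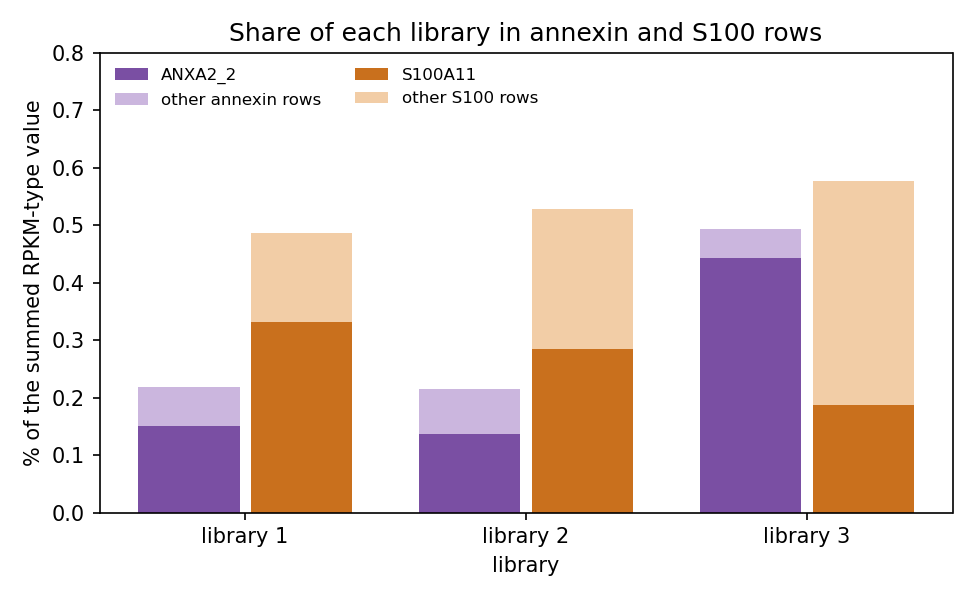
Percent of the summed RPKM-type value of each library in annexin rows (purple) and S100 rows (orange), with the leading row of each family in the darker shade and no error bars because each bar is 1 library. The S100 bars are of similar height, from 0.487% to 0.577%, and the annexin bar of library 3, mostly ANXA2_2, reaches 0.493%.

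The tetraspanins, another family of membrane proteins used to mark vesicles, had 3 detected rows of 31 (9.68%, against 3.89% of all rows). The median log2(value + 1) over all rows of a family was higher in annexins than in tetraspanins by 0.49 ± 0.33, in 3 of 3 libraries (SD, n = 3; exact sign-flip p = 0.25). For S100 genes the difference was 0.29 ± 0.39, positive in 2 of 3 libraries (SD, n = 3; exact sign-flip p = 0.5), and 0.12 without library 2. Both differences depend on how rows near 0 are treated. With a pseudocount of 0.1 they were 1.71 ± 0.67 for annexins and 1 ± 1.73 for S100 genes (SD, n = 3). The exact sign-flip p was 0.25 for the former and 0.5 for the latter. Over rows above 0 in a library the differences were 0.46 and 1.60 (exact sign-flip p = 0.25 for each), so that the order of annexins and S100 genes turned.

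Genes that act with annexins and S100 proteins were detected in 2 of 18 cases (11.1%). Cofilin CFL1, an actin-severing protein, stood at 9.2, 25.6 and 7.8. Sorcin (SRI), a calcium-binding partner of annexin A7, stood at 1.3, 7.9 and 1.5, while ANXA7 itself was not detected. CACYBP, the binding protein of S100A6, stood at 4.3, 17.8 and 0.2 although S100A6 was listed at 0. AHNAK, a large scaffold that binds the complex of annexin A2 and S100A10, did not exceed 0.1. Other EF-hand proteins were detected in 5 of 33 cases (15.2%), among them the myosin light chain MYL6 at 13.1, 39.8 and 6.5. CIB1 (1.8, 4.8 and 1) and CHP1 (2.7, 3.2 and 1.4) were also detected. None of 22 calcium channels, pumps and their regulators was detected, against 3.89% of all rows, and ORAI3 had the highest mean of them at 1.1, 0.8 and 1.2. Of 13 rows for fused S100 and cornified envelope genes, 1 was detected, the keratin KRT14_2 at 4.9, 5.4 and 8.1.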

How the data were processed

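The authors deposited 1 table of 25197 rows with a value per library and their mean. Per the submitters' processing notes, Oar_v3.1 was the genome build. The aligner, counter and annotation were not given in the sources used here. Values deposited by the authors were taken as RPKM or FPKM, rounded to 1 decimal, since the file does not name the unit and low values step by more in short genes. Gene lengths were not used, so no count model was fitted. Library numbers follow the labels' order, and columns were matched by title. No library was a copy of another, since at most 25 of 981 detected rows had equal values in a pair.

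Per the labels' protocols, medium was filtered at 0.2 µm, vesicles were precipitated with ExoQuick-TC, and 5 ng of RNA went into SMART-Seq libraries read as 50 bp pairs. SMART-Seq primes on poly(A) tails.

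Differences were taken in log2(value + 1), so that those between low genes are understated. Rows of the same symbol were summed in the pairs. Tests were exact two-sided sign-flip permutations over libraries. Members, lists, pairs and tests were chosen with earlier results of these data known. Named genes were all members at 1 or more in a library, all genes of the 6 pairs, and the detected or up to 3 highest genes of the other lists; AHNAK and members below 1 were added, while some list genes were left unreported. Alternatives were pseudocounts of 0.1 and 0.5, detection values of 0.5 and 2, scaling to equal sums, single rows per symbol, filters, and leaving out each library. Scripts were tested on simulated data (Python 3.11.15, pandas 2.3.3). RefSeq identifiers matched 0 rows, so the RefSeq table was used by symbol and for gene order only.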

Additional observations from a re-analysis of the deposited data

How the results depend on the processing

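Over 13 results and 81 alternatives, no difference reversed. As no test could pass its threshold, this covers direction only for the differences, and sizes moved. With a pseudocount of 0.1, S100A6 minus ANXA11 went from -0.35 to -1.44, S100A6 minus ANXA2 from -5.36 to -8.65 and S100A4 minus ANXA2 from -5.08 to -7.59, all against S100 values at or near 0. Annexin minus tetraspanin went from 0.49 to 1.71 and S100 minus tetraspanin from 0.29 to 1, and the latter was 1.60 over rows above 0. The number of detected annexins ranged from 2 to 4 when a library was left out, and the added rows were ANXA1 and annexin A5 without library 3. With the 10 highest rows left out of each library's sum, the S100 share was 0.650%, which follows from the smaller sum. The S100 count was 7 at a detection value of 0.5, 4 at a value of 2 and 7 with libraries scaled to equal sums. That scaling also changed the order of libraries. ANXA2_2, ANXA6, S100A2, S100A14 and S100A10 were then highest in library 3, while library 2 was highest in the deposited values. S100A10 minus ANXA2 lay between -2.12 and -1.98 under all alternatives tried. No comparison between groups was possible because there was 1 group, and the differences tested were taken within each library. With 3 libraries no sign-flip test could pass 0.05. Rounding to 1 decimal and short transcripts limit what can be said of members below about 1.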

Other observations

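S100A2 and S100A14, epithelial genes of the same part of the S100 cluster, moved together over the libraries. S100A16, which lies between them, did not follow in library 3, at 3.9, 9.2 and 0.8. Its ratio of library 3 to library 1 was 0.205, against 1.71 for S100A2, 1.78 for S100A14 and 1 for the next gene, S100A13. The ratio of S100A2 to S100A14 was 1.60, 1.44 and 1.54 in libraries 1, 2 and 3, while library 2 exceeded library 1 by 4.26 times for S100A2 and 4.72 times for S100A14. Of the 28 pairs among the 8 detected members, this pair had the smallest SD of the log2(value + 1) difference (0.04), followed by ANXA2_2 with S100A10 (0.08). The largest SD was that of S100A11 with ANXA2_2 (1.31). S100A11 was 2.11 and 2.06 times as high as the summed ANXA2 rows in libraries 1 and 2, and in library 3 ANXA2 was 2.36 times as high as S100A11. These pairs were picked after their values were seen, and no test was run on them.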
